A study of Mus musculus with 743 samples.

Results

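Chemokines and cytokines are small secreted proteins through which cells of a nerve attract and sustain leukocytes. Here 8 of their genes were followed in single Schwann cells (SCs), the glia of peripheral nerves, from the sciatic nerves of newborn mice. The genes were Cxcl1, which acts on neutrophils through Cxcr2; Cxcl10, an interferon-inducible ligand of Cxcr3; Ccl2 and Ccl7, ligands of Ccr2 that attract monocytes; Cxcl12, the ligand of Cxcr4 and Ackr3; Csf1 and Il34, which both act through Csf1r to keep macrophages alive; and Il6, which signals through Il6ra and Il6st. They were picked by name with earlier results of these data known, 8 of the 25700 genes counted. Schwann cells are known to make several of these factors after nerve injury, when macrophages enter the nerve and remove myelin debris. Many of these genes are switched on within hours by the factors NF-kB, AP-1 and, for Cxcl10, the interferon-activated factors.

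The mice carried P0Cre, ReYFP and βAct-DsRed transgenes on a C57bl/6J background and were at postnatal day 1. The Cre transgene switches on eYFP in the Schwann cell lineage. Nerves were taken apart with enzymes, and eYFP-positive cells were sorted 1 per well into 2 plates for Smart-seq2, a full-length protocol without molecular identifiers. A separate pair of animals, 1 male and 1 female, was pooled for each plate. All wells form 1 group, with the 2 plates as its replicates.

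Of 743 wells, 621 held at least 1500 detected genes and were kept as cells, 287 on plate 1 and 334 on plate 2. Plate 1 held 276327564 and plate 2 held 274141117 counted reads over all wells, and the median cell had 928401 reads on plate 1 and 791056 on plate 2. Cells with at least 50 CPM, the reads of a gene per 1000000 counted reads, of Mki67 and Top2a together, both genes of dividing cells, were called cycling (110 cells). Cells that were not cycling and had at least 50 CPM of Ncmap, a myelin protein gene, were called promyelinating (119 cells), and the remaining 392 were called other cells. These names describe limits on 3 genes and not clusters. A read of Sox10, S100b or Erbb3, markers of SCs, was present in 604 of the 621 cells (97.3%). The immune markers Ptprc, Tyrobp, Adgre1, Aif1 and Cx3cr1 had 0 reads, as did Pdgfra of fibroblasts, Cdh5 and Kdr of endothelial cells, and Acta2 and Rgs5 of mural cells. The other immune markers were found at low level, Csf1r in 58 cells and Cd68 in 12. The other fibroblast markers were found as well, Dcn in 25 cells and Lum in 3. So were the other endothelial markers, Cldn5 in 16 cells, Pecam1 in 5 and Emcn in 1, and the mural markers Cspg4 in 62 and Pdgfrb in 53. A fibroblast marker was present in 28 cells (4.51%), an endothelial marker in 22 (3.54%) and a mural marker in 109 (17.6%).

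Transcripts of the 8 genes were rare among the cells. Il34 had a read in 45 cells (7.25%, exact 95% binomial interval 5.33 to 9.58), Cxcl10 in 41 (6.60%, 4.78 to 8.85), Cxcl1 in 23 (3.70%, 2.36 to 5.51), Csf1 in 19 (3.06%, 1.85 to 4.74) and Cxcl12 in 6 (0.966%). Ccl2 and Ccl7 were each detected in 1 cell, and Il6 in 0 of 621 cells (upper limit of the share 0.483% taking 3 counts of the total, and 0.592% by the exact interval). The numbers were close on both plates, with 22 and 23 cells for Il34, 22 and 19 for Cxcl10, 11 and 12 for Cxcl1, 9 and 10 for Csf1, and 3 and 3 for Cxcl12. A cell without a read is not shown to lack the transcript, and intervals cover counting error only.

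In all, 118 cells (19%) had a read of any of the 8 genes. Of these, 103 had 1 gene, 12 had 2 and 3 had 3. Cxcl1 and Cxcl10 were found together in 2 cells, which is 8.70% of the Cxcl1 cells and 4.88% of the Cxcl10 cells, while 6.52% of the cells without Cxcl1 had Cxcl10. Cxcl1 was found with Csf1 in 3 cells and with Il34 in 3. Ccl2 and Ccl7, which are neighbours on chromosome 11 (82035571 to 82037453 and 82045712 to 82047525 in GRCm38), were detected in different cells.

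Where they were present, some of these transcripts were abundant. In the 41 cells with Cxcl10 the level ran from 0.921 CPM over a median of 487 to 8004 CPM, and in the 23 cells with Cxcl1 from 9.59 over 351 to 3744 CPM. Il34 had a median of 146 and a maximum of 709 CPM, whereas Csf1 had a median of 19.6 and a maximum of 391 CPM. At 50 CPM or more, the limit drawn in the plot of single cells, there were 37 cells for Cxcl10, 21 for Cxcl1, 33 for Il34, 5 for Csf1 and 4 for Cxcl12. The 1 cell with Ccl2 was a cycling cell of plate 1 with 5 reads of the gene among 47561 in all, and the 1 cell with Ccl7 was a promyelinating cell of the same plate with 141 reads (138 CPM).

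**Figure D1:**
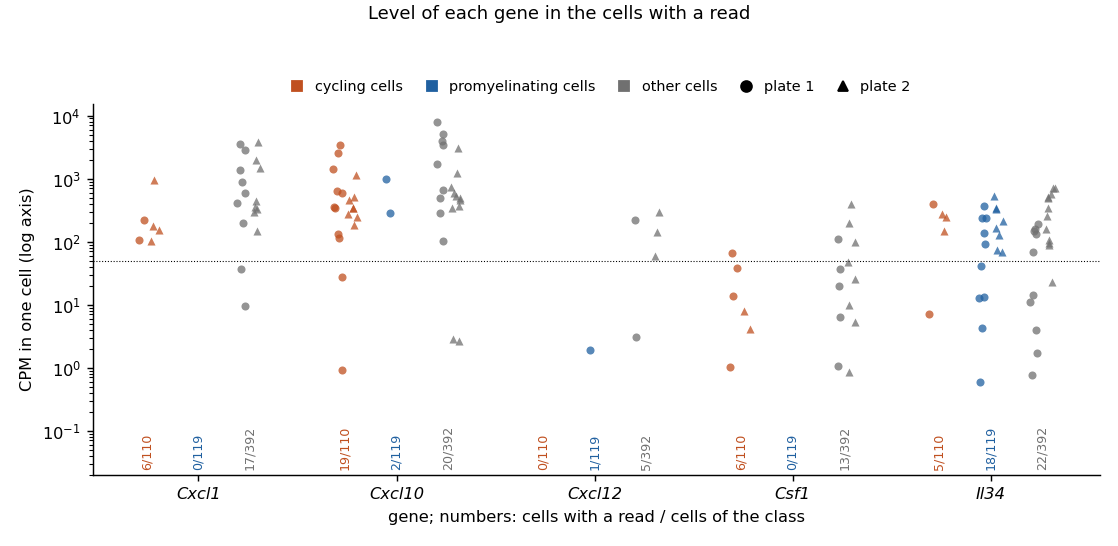
Each point is 1 cell with a read of the gene, with its level in CPM on a log axis, coloured by class and shaped by plate; the numbers give cells with a read of all cells of the class, and the dotted line marks 50 CPM. Cxcl1 and Csf1 have no point among the 119 promyelinating cells, and Cxcl10 reaches 8004 CPM in a single other cell.

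Summed over the cells of a plate and divided by transcript length (RPKM, reads per 1000 exon bases and 1000000 reads), the order of the levels was Cxcl10, Cxcl1, Il34, Ccl7, Csf1, Cxcl12, Ccl2 and Il6. Cxcl10 had 65.0 RPKM on plate 1 and 16.6 on plate 2, Cxcl1 had 16.9 and 9.60, and Il34 had 3.43 and 11.9. The ranges of Cxcl10 and Cxcl1 over the plates overlapped narrowly, with Cxcl10 above Cxcl1 on each plate, whereas Cxcl1 and Il34 overlapped and changed order between the plates. Csf1 (0.227 and 0.268 RPKM) and Cxcl12 (0.166 and 0.0675) lay below all of them, and Ccl7 (0.678 and 0) and Ccl2 (0.0169 and 0) rested on 1 cell each.

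The plates did not rank the genes alike. In CPM, which takes no account of length, Cxcl10 had 146 on plate 1 and 37.4 on plate 2, a ratio of 3.91, and Cxcl1 had 31.7 and 18. Il34 went the other way, with 6.72 CPM on plate 1 and 23.3 on plate 2, while the numbers of cells with Il34 were alike. Each plate is a single pool, so differences between plates have no replicate check, and Cxcl10 was among the genes picked for its difference between the plates. Without the cell that held most reads of the gene on each plate, Cxcl10 had 109 and 27.3 CPM, Cxcl1 18.8 and 13, and Il34 5.27 and 19.3.

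**Figure D2:**
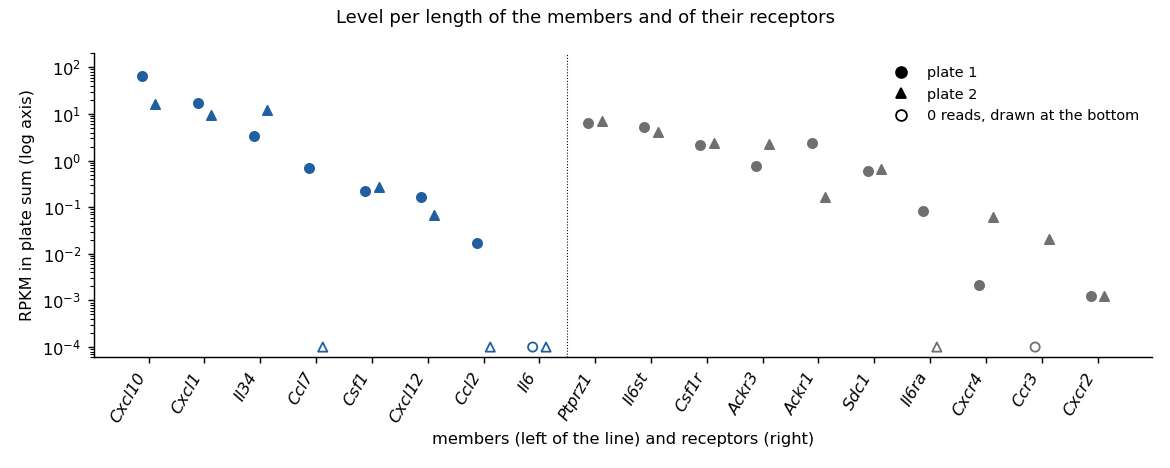
Levels per length (RPKM, log axis) in the sum of all cells of plate 1 and of plate 2, for the 8 genes on the left and for the 10 of their 14 receptors with a mean of at least 0.001 RPKM on the right, each ordered by the mean; open symbols at the bottom stand for 0 reads. Cxcl10 and Cxcl1 head the ligands, and Ptprz1 and Il6st head the receptors.

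The reads came from few cells. For Cxcl1, 3 cells held 78.6% of the reads of plate 1 and 70.6% of those of plate 2. For Cxcl10 the shares were 60.5% and 67.3%, for Csf1 76.2% and 84.8%, and for Il34 48.1% and 40.7%. These shares describe how uneven the genes were. Among all 8381 genes with at least 10 CPM on plate 1 the median share of the top 3 cells was 24.4%, and 58 genes had a higher share than Cxcl1 and 321 a higher share than Cxcl10. On plate 2, with 8492 such genes and a median of 23.4%, the numbers were 122 for Cxcl1, 173 for Cxcl10 and 1568 for Il34.

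Single cells decided some of the sums. The cell with most Cxcl1 reads was an other cell with 2827 CPM on plate 1 (41.0% of the reads) and an other cell with 1469 CPM on plate 2 (28.0%). Of the 353 Cxcl12 reads of plate 1, 350 came from 1 cell, and the level fell from 1.36 to 0.0116 CPM without it. Spread between neighbouring wells was looked at by plate row and column. Of the other wells with Cxcl1, 18.2% on plate 1 and 8.33% on plate 2 shared a row or column with that well, against 10.3% and 10.2% of all other wells. For Cxcl10 the shares were 13.6% and 11.1%, and for Il34 8.70% and 22.7%, with 10.3% and 9.95% of all other wells of the plates in the same row or column as the richest Il34 well.

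**Figure D3:**
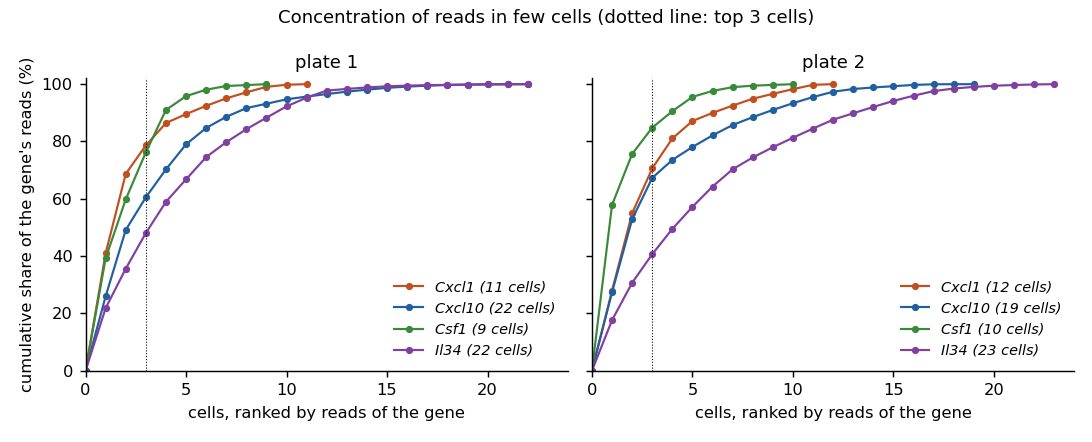
Cumulative share of the reads of a gene (percent) against the number of cells, ranked by their reads of it, on plate 1 (left) and plate 2 (right); the dotted line marks the top 3 cells. At that line Cxcl1 has reached 78.6% and 70.6%, and Il34 48.1% and 40.7%.

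Cxcl1 (ENSMUSG00000029380, chromosome 5, 90891241 to 90893115 on the plus strand of GRCm38) encodes a chemokine that draws neutrophils. It had no read in promyelinating cells. Among cycling cells it was detected in 6 of 110 (5.45%) and among other cells in 17 of 392 (4.34%), but in 0 of 119 promyelinating cells, which allows up to 2.52% (3 counts of the total, exact 95% limit 3.05%). The summed levels were 8.15 CPM on plate 1 and 11.2 on plate 2 in cycling cells, 48.9 and 25.2 CPM in other cells, and 0 and 0 in promyelinating cells. The pooled level in other cells was 1272 times the floor of 3 reads over both plates in promyelinating cells. That in cycling cells was 334 times this floor. These ratios count reads and not cells, and the reads came from few cells, so they are no lower bounds. As shares of cells, the limit of 3.05% for promyelinating cells lay within the exact 95% interval of other cells (2.55 to 6.85). Without the richest cell per class and plate, Cxcl1 had 3.72 and 4.62 CPM in cycling and 28.1 and 17.4 CPM in other cells. Since earlier results of these data had picked Cxcl1 for its difference between classes, this is a description and no test is given. Of 10806 genes with a read in at least 20 cells, 0.916% had no read in any promyelinating cell. Most of these genes were found in more cells than Cxcl1, so this share is not matched to genes as rare.

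Cxcl10 (ENSMUSG00000034855, chromosome 5, 92346638 to 92348889 on the minus strand) encodes a chemokine that draws activated T cells. Its share of cells was highest in the cycling class. It was detected in 11 of 53 cycling cells of plate 1 (20.8%) and in 8 of 57 of plate 2 (14%), against 5.14% and 5.07% of the other cells and 3.39% and 0% of the promyelinating cells. The cycling share was thus above that of the other cells on both plates, by a ratio that 6.80% of the 10806 genes also reached (at least 2 on both plates), in cells that had a median of 3469 genes against 2810. The 10806 genes were not matched to Cxcl10 in the number of cells with a read. After each cell was thinned to 50000 reads, the shares were 16.5% of cycling and 4.87% of other cells.

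The summed levels of Cxcl10 did not follow these shares. They were 177 and 58.1 CPM in cycling cells, 183 and 43.3 in other cells and 6.37 and 0 in promyelinating cells, on plates 1 and 2. Cycling and other cells overlapped, and promyelinating cells lay below both. The reads came from 20 other cells with a median of 561 CPM and from 19 cycling cells with a median of 345 CPM. Without the richest cell of each class and plate the sums were 109 and 26.5 CPM in cycling cells and 123 and 27.4 in other cells.

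The locus of Cxcl10 overlaps exons of Art3, which lies on the opposite strand, and the strand used in counting is not stated. Art3 had a read in 40 of the 41 Cxcl10 cells and in 567 of the 580 cells without Cxcl10, at 1757 and 1677 CPM in summed reads, so that Art3 was as frequent in cells that had no Cxcl10 read.

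The letters upstream of Cxcl1 and Cxcl10 are shown because they had the highest mean levels per length over the plates. Both genes also had reads in few or no promyelinating cells. The sequences are from RefSeq (GRCm38.p6) and run from 250 to 11 bases before the RefSeq start, 5′ to 3′ on the strand of the gene. For Cxcl1 this start differs by a few bases from the GENCODE start given above. Capitals mark matches, on either strand, to the NF-kB consensus, to AP-1 (TGANTCA), to CRE (TGACGTCA) or to the interferon-stimulated response element ISRE (GAAA, any 2 bases, GAAA). Cxcl1 is at chr5:90890995-90891234 on the plus strand and Cxcl10 at chr5:92348900-92349139 on the minus strand.
Cxcl1: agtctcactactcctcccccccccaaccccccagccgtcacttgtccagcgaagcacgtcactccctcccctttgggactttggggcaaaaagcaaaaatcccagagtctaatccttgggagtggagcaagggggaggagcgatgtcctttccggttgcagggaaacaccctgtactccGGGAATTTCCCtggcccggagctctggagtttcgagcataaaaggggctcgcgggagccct
Cxcl10: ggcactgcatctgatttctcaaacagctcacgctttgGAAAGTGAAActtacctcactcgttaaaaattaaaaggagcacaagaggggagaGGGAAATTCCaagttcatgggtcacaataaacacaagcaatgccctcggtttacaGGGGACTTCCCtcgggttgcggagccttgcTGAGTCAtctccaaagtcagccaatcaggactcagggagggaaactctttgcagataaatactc

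The Cxcl1 stretch held an NF-kB match at 71 to 61 bases before the start, counted on both strands as 2 overlapping ones. The Cxcl10 stretch held an ISRE match at 213 to 204 bases, NF-kB matches at 159 to 150 and at 104 to 94 bases, the latter again 2 overlapping ones, and an AP-1 match at 74 to 68 bases. Neither held a CRE match. Of 32851 promoter stretches of the same 240 bases, 6.96% held an NF-kB match, 6.58% AP-1, 2.87% ISRE and 1.44% CRE. Promoters of 5 of the 8 genes were in the table. Those of Csf1 (1 NF-kB match) and Il6 (1 NF-kB and 1 AP-1 match) held matches and that of Cxcl12 held none; Ccl2, Ccl7 and Il34 were not looked up elsewhere. A match is a run of letters and not a measured site.

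Il34 (ENSMUSG00000031750, chromosome 8, 110741829 to 110805924 on the minus strand), a ligand of Csf1r as Csf1 is, was found in a larger share of promyelinating cells. It was detected in 10 of 59 promyelinating cells of plate 1 (16.9%) and 8 of 60 of plate 2 (13.3%), against 5.71% and 5.53% of other cells and 3.77% and 5.26% of cycling cells. A share at least 2 times that of other cells on both plates was found for 6.86% of the 10806 genes, in cells that had a median of 3606 genes. These genes were not matched to Il34 in the number of cells with a read. After thinning, the shares were 12.8% of promyelinating, 4.62% of other and 4.59% of cycling cells.

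In summed reads Il34 had 13.8 and 38.3 CPM in promyelinating cells, 3.99 and 22.4 in other cells and 8.17 and 9.72 in cycling cells. On each plate the promyelinating sum was the highest, but its range over the plates overlapped that of other cells. The gene overlaps the antisense genes Gm15894 and Gm15895 in exons, which were not analysed here, so its count is uncertain.

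Csf1 (ENSMUSG00000014599, chromosome 3, 107741048 to 107760469 on the minus strand), the other ligand of Csf1r, had 0 reads in promyelinating cells, as Cxcl1 did. It was detected in 6 of 110 cycling cells (5.45%) and 13 of 392 other cells (3.32%), at a low level: 2.49 and 0.20 CPM in cycling and 1.21 and 2.16 CPM in other cells. The pooled level in other cells was 59.1 times the floor of 3 reads in promyelinating cells, and that in cycling cells 47.7 times. Of the 127 reads in cycling cells 118 were on plate 1. These ratios rest on few cells and are no lower bounds. As shares of cells, the exact 95% limit of 3.05% for promyelinating cells lay within the interval of other cells (1.78 to 5.60). Csf1 was found in 19 cells, so the share of genes in at least 20 cells given for Cxcl1 does not cover it. Without the richest cell of each plate, Csf1 had 1.16 and 0.0227 CPM in cycling cells and 0.447 and 0.882 in other cells. Cxcl12 (chromosome 6, 117168535 to 117181367) was detected in 5 other cells, in 1 promyelinating cell with 2 reads and in 0 of 110 cycling cells, which allows up to 2.73% (exact 95% limit 3.3%).

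**Figure D4:**
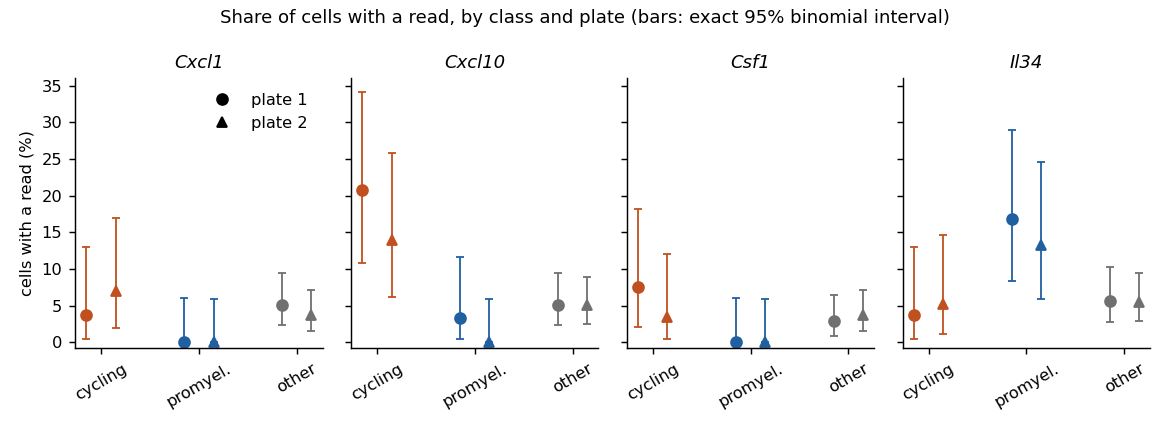
Share of cells with a read (percent, points) of Cxcl1, Cxcl10, Csf1 and Il34 in cycling, promyelinating and other cells of each plate, with exact 95% binomial intervals as bars. Cxcl10 is highest in cycling cells (20.8% and 14%), Il34 in promyelinating cells (16.9% and 13.3%), and Cxcl1 and Csf1 are at 0 in promyelinating cells.

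Reads were then summed per plate and class and the classes were compared with edgeR's quasi-likelihood test over 13292 genes, with p-values adjusted by the Benjamini-Hochberg method. Cxcl10, Cxcl12, Csf1 and Il34 passed the filter on low counts, beside Cxcl1, which got no test. By edgeR 0 of these 4 were called in any of the 3 comparisons, where it called 1.79% of all genes for other against promyelinating cells, 1.01% for other against cycling cells and 5.95% for promyelinating against cycling cells. By limma, which called 2.91%, 1.61% and 10.2% of all genes, 0 of the 4 were called as well. DESeq2, which called 7.72%, 6.12% and 17.5%, called 1 of them in the last comparison. At an unadjusted p under 0.05 there were 2, 0 and 2 of the 4 genes, against 11.2%, 10.1% and 20.1% of all genes.

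In both comparisons with promyelinating cells Cxcl10 had the smallest edgeR p of the 4. Its log2 fold change was 5.08 ± 1.78 (SE) for other against promyelinating cells (edgeR adjusted p = 0.309) and -5.27 ± 1.79 for promyelinating against cycling cells (adjusted p = 0.147). With the plate as a block the latter passed the threshold (adjusted p = 0.0375, with 6.66% of all genes called). DESeq2 called Csf1 in the same comparison (adjusted p = 0.0479), where edgeR gave an adjusted p of 0.223. Il34 was not called in any comparison, with -1.07 ± 0.977 for other against promyelinating cells (edgeR adjusted p = 0.811) and 1.49 ± 0.988 for promyelinating against cycling cells (adjusted p = 0.434). Cxcl10 in other against cycling cells had -0.19 ± 1.49 (adjusted p = 0.99).

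Atf3, a transcription factor of the AP-1 family that cells switch on after stress and nerve injury, followed a class pattern like that of Cxcl1. It was at 50 CPM or more in 116 of 392 other cells (29.6%) and 30 of 110 cycling cells (27.3%) but in 1 of 119 promyelinating cells (0.840%). In the same edgeR fit Atf3 was higher in other than in promyelinating cells (log2 fold change 9.18 ± 1.31, adjusted p = 0.0108), with 328 and 344 against 0 and 1.09 CPM. When genes with low counts were kept, its adjusted p was 0.257. Atf3 had stood out in earlier results of these data, so its call is not independent of them. Its co-detection with the 8 genes was therefore compared within the other cells.

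Among other cells, the share with Cxcl1 was higher on both plates in the cells with Atf3, though edgeR did not call the difference in summed reads. On plate 1 it was detected in 6 of 49 cells with at least 50 CPM of Atf3 (12.2%, 4.63 to 24.8) and in 3 of 126 with less (2.38%, 0.494 to 6.80), and on plate 2 in 6 of 67 (8.96%, 3.36 to 18.5) and 2 of 150 (1.33%, 0.162 to 4.73). In all, 82.2% of the Cxcl1 reads of other cells lay there, in 29.6% of the cells. A share at least 2 times as high on both plates was found for 1.23% of the 10806 genes. This 1.23% is not matched to genes as rare as Cxcl1. Cells with and without Atf3 had like depths, with a median of 845430 against 909756 reads and of 2823 against 2804 genes.

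In summed reads Cxcl1 had 171 CPM in cells with Atf3 and 6.09 in cells without on plate 1, and 58.0 and 11.8 CPM on plate 2. These sums rest on few cells. On each plate 1 cell with Atf3 held the most, 43.0% and 31.2% of the Cxcl1 reads of other cells. On plate 2, 1 cell without Atf3 held 1310 reads. By Atf3, no sum was made without such cells. The log2 fold change of Cxcl1 with against without Atf3 was 3.77 ± 0.707, with an unadjusted p of 0.00129 in edgeR's test. The adjusted p over 12593 genes was 0.929. This fit called 0% of all genes, while 639 genes (5.07%) had an unadjusted p under 0.05. Atf3 itself, by which the cells were divided and which is no result here, had an adjusted p of 0.0941. Cxcl1 and Atf3 had both stood out in earlier results of these data, so no p-value of Cxcl1 in this comparison is independent of them. DESeq2 called Cxcl1 (adjusted p = 4.77e-06, with 1.22% of all genes called), and so did edgeR when genes with low counts were kept (adjusted p = 0.0150, with 0.0598% called), but with the plate as a block the adjusted p was 1.00, and limma called 0.00794% of all genes and not Cxcl1.

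For Csf1 and Il34 the shares were higher with Atf3 on both plates as well, and neither was called. Csf1 was detected in 6.12% against 1.59% of the cells with and without Atf3 on plate 1 and in 5.97% against 2.67% on plate 2. Its summed levels were 4.25 against 0.135 and 6.31 against 0.464 CPM, and the edgeR adjusted p was 0.962. Il34 was detected in 8.16% against 4.76% and 8.96% against 4.0% (adjusted p = 1.000). Cxcl10 was detected in 10.2% against 3.17% and 7.46% against 4.0%, but its levels went in opposite directions on the plates, with 129.8 against 202 CPM on plate 1 and 70.7 against 32.1 on plate 2. Its log2 fold change was -0.16 ± 0.800 (edgeR adjusted p = 1.000).

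**Figure D5:**
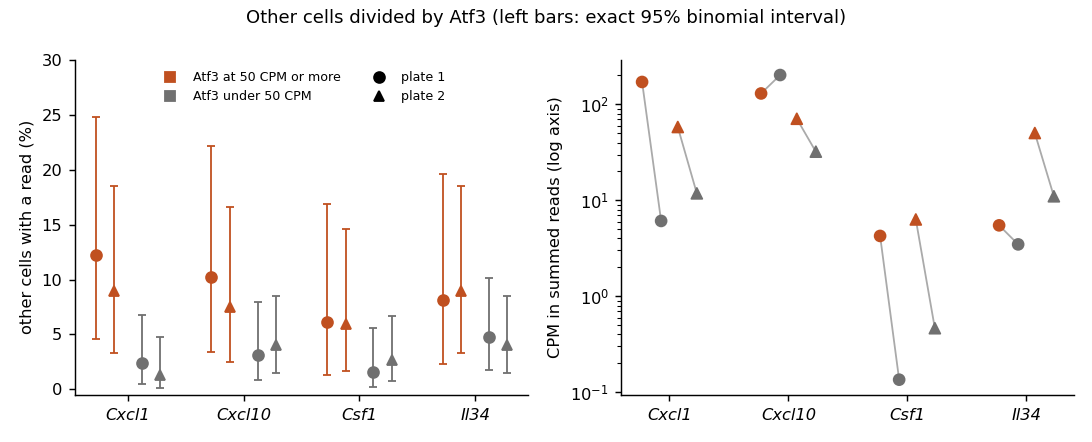
Other cells divided at 50 CPM of Atf3, as the share of cells with a read (left, percent, with exact 95% binomial intervals) and as CPM in the summed reads (right, log axis, lines join the sums of a plate), for 4 genes and both plates. Cxcl1 falls from 171 to 6.09 CPM on plate 1 and from 58.0 to 11.8 on plate 2, and Cxcl10 moves in opposite directions. The Cxcl1 sums rest on few cells.

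Atf3 did not stand alone in these cells. Of a list of 10 immediate-early and dissociation response genes, all tested, 5 were higher in other than in promyelinating cells and 0 lower. The median log2 fold change of the list was 1.63 against 0.07 over all genes. EdgeR called 1.79% of all genes there, and the 5 include Atf3. Beside Atf3, Ier2 had 253 and 371 against 13.1 and 44.9 CPM (log2 fold change 3.35 ± 0.546, edgeR adjusted p = 0.0196), Egr1 had 589.9 and 791 against 174 and 231 CPM (adjusted p = 0.0162), and Jun had 386 and 486 against 132 and 139 CPM (adjusted p = 0.00871). In promyelinating against cycling cells 6 of the 10 were lower and 0 higher (median -1.33), Atf3 again among them. Fosb, also lower, had 9.76 and 13.4 against 46.6 and 105 CPM (edgeR adjusted p = 0.0198). In other against cycling cells 0 were called by edgeR, DESeq2 or limma (1 at an unadjusted p under 0.05). EdgeR called 5.95% and 1.01% of all genes in these 2 comparisons. Within the other cells the 9 genes of the list beside Atf3 all had a positive log2 fold change towards the cells with Atf3 (median 1.16, 6 at an unadjusted p under 0.05), with 0 called by edgeR, 5 by DESeq2 and 0 by limma. Over all genes DESeq2 called 1.22% in that comparison, and 5.07% had an unadjusted p under 0.05 by edgeR. The genes of the list respond to the handling of tissue as well as to injury, and their part in the pattern of Cxcl1 was not tested.

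Of 14 factors and feedback targets of NF-kB, 0 were called by edgeR in any of the 4 comparisons, with 1, 0, 0 and 1 at an unadjusted p under 0.05. DESeq2 called 2 of them in other against promyelinating cells and 1 in promyelinating against cycling cells, and limma 0. Of 17 genes of the interferon response, 16 were tested and 0 were called by edgeR, but 8 had an unadjusted p under 0.05 in other against promyelinating cells (median log2 fold change 1.75 against 0.07 over all genes), 2 in other against cycling, 3 in promyelinating against cycling and 1 by Atf3. DESeq2 called 6, 1, 2 and 0 of them and limma 2, 0, 2 and 0. Over all genes, 11.2%, 10.1%, 20.1% and 5.07% had an unadjusted p under 0.05 in these comparisons, and DESeq2 called 7.72%, 6.12%, 17.5% and 1.22%. Irf1, an interferon-induced factor of that list, had a read in 19 of the 41 Cxcl10 cells (46.3%) against 20.5% of the cells without Cxcl10, with 36.4% against 21.5% on plate 1 and 57.9% against 19.7% on plate 2. In the 23 Cxcl1 cells the share was 52.2% against 21.1%. Nfkbia, the inhibitor that NF-kB induces, was found in 85.4% of the Cxcl10 cells and in 64.8% of the others. Other genes of these lists went the other way, with Irf9 in 2.44% of the Cxcl10 cells against 8.97%, Bst2 in 14.6% against 20%, Ifi35 in 24.4% against 27.9% and Nfkbib in 22% against 24%. Irf1, Nfkbia, Irf9, Bst2, Ifi35 and Nfkbib were chosen for naming after their values were seen. Further genes of the interferon list were Usp18 (16 cells), Isg15 (13), Gbp3 (13), Cmpk2 (12), Ifit3 (10), Oasl2 (7), Ifit1 (3) and Rsad2 (2). Of them Isg15 alone had a read in a Cxcl10 cell, in 1 of 41.

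No gene reached the limit set for tracking any of the 5 members compared. A member found in few cells can reach only a low r with a gene found in many. The limit could thus be out of reach, and likeness is not excluded. Among 9503 genes with a read in at least 5% of the cells of each plate, 0 reached a Pearson r of 0.3 on both plates with Cxcl1, Cxcl10, Cxcl12, Csf1 or Il34, over log2(CPM + 1) in the 287 and 334 cells.

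The receptors were searched for in the same cells. Cxcr3, Ccr1 and Ccr2 had 0 reads, Cxcr2 was detected in 2 cells, Cxcr4 in 3 and Ccr3 in 1. The 4 receptors with the highest level per length were Ptprz1 (6.40 and 7.11 RPKM, 269 cells), a phosphatase that binds Il34; Il6st (5.30 and 4.15 RPKM, 178 cells), the shared signalling chain of the Il6 family; Csf1r (2.14 and 2.35 RPKM, 58 cells); and Ackr3 (0.760 and 2.30 RPKM, 30 cells), a scavenger of Cxcl12. Il6ra, the specific chain for Il6, was detected in 4 cells.

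Ptprz1 and Il34 were arranged differently over the classes. Ptprz1 was lower in promyelinating cells, with 13.2 and 8.99 CPM against 98.5 and 126 in other cells (log2 fold change 3.25 ± 0.401 for other against promyelinating cells, edgeR adjusted p = 0.00552) and 152 and 114 in cycling cells (adjusted p = 0.00145). Il6st was lower in promyelinating than in cycling cells as well, with 9.38 and 19.9 against 67.7 and 108 CPM (adjusted p = 0.0351, but 0.0674 in cells with at least 2500 genes). Of the 14 receptors 6 were tested, and besides these calls edgeR made 0 in any comparison. Il34 cells had a read of Ptprz1 in 15 of 45 (33.3%) against 44.1% of the other 576 cells, and of Csf1r in 6 of 45 (13.3%) against 9.03%, with 18.2% against 8.30% on plate 1 and 8.70% against 9.65% on plate 2. Csf1 cells had Csf1r in 2 of 19, and 0 of the 6 Cxcl12 cells had Ackr3 or Cxcr4.

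Of 50 other chemokine and cytokine ligands, 29 had 0 reads, among them Il1b, Tnf, Ccl3, Ccl4, Ccl5 and Cxcl9. A read in at least 20 cells was found for 6 of them. The highest levels per length were those of Mif (625 and 501 RPKM, 559 cells), Il18 (4.40 and 3.72 RPKM, 12 cells), Il16 (3.15 and 3.45 RPKM, 83 cells) and Ccl25 (4.18 and 1.51 RPKM, 55 cells). Of the 12 tested, 0 were called by edgeR in any comparison, with 1, 2, 3 and 0 at an unadjusted p under 0.05, beside 11.2%, 10.1%, 20.1% and 5.07% of all genes. DESeq2 called 0, 1, 1 and 0 of them and limma 1, 1, 1 and 0.

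The cells with these transcripts carried markers of SCs. A read of Sox10, S100b or Erbb3 was found in 22 of 23 Cxcl1 cells, 41 of 41 Cxcl10 cells, 19 of 19 Csf1 cells and 44 of 45 Il34 cells. A read of an immune marker was found in 2, 2, 2 and 8 of them, and in 70 of all 621 cells (11.3%). A read of a mural marker was found in 5, 11, 6 and 10 of them, and in 109 of all cells (17.6%). The part of such cells in the results was not tested. The summed immune list took 6.34 and 6.17 CPM in cycling, 18.4 and 2.77 in promyelinating and 14.9 and 20.7 in other cells, and 0 of its 2 tested genes were called by edgeR, DESeq2 or limma, with 0 at an unadjusted p under 0.05. S100b was higher in promyelinating than in other cells (251 and 288 against 84.9 and 94.0 CPM, edgeR adjusted p = 0.0446) and than in cycling cells (adjusted p = 0.00375). The mural gene Pdgfrb had 0 reads in cycling cells and 20.7 and 37.8 CPM in other cells (adjusted p = 0.00976), and 43.7 and 13.8 in promyelinating cells (adjusted p = 0.00338). Of the fibroblast and endothelial lists 1 gene each was tested and 0 were called by edgeR. DESeq2 called the fibroblast gene in both comparisons with cycling cells and limma in promyelinating against cycling cells, while neither called the endothelial gene. The fibroblast gene had an unadjusted p under 0.05 in 3 of the 4 comparisons and the endothelial gene in 1.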

How the data were processed

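The samples were 743 wells of 2 plates of eYFP-sorted SCs from sciatic nerve. The deposited table holds unnormalised read counts for every gene and well, made by the authors with STAR 2.6.1c and featureCounts on GRCm38.p5 according to the submitters' processing notes. The methods of the study name a human assembly, while the gene IDs are mouse IDs, and strand use in counting is not stated. A read is not a molecule. All 25700 genes were read; 25587 IDs matched a symbol and 16 shared one. Positions are from GENCODE M21.

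Wells with at least 1500 genes were kept, giving 621 cells; 122 were set aside. Cells were divided by the limits of 50 CPM given in the report. Plates were grouped by sample title, and no doublet caller was run on cells sorted 1 per well. Cells are not replicates, so counts were summed per plate and class (45073128 to 172878954 reads per sum) and tested with edgeR 4.0.16 (TMM, filterByExpr, robust quasi-likelihood test, no plate term, Benjamini-Hochberg adjustment over all genes tested, threshold 0.05). Fold changes of genes with 0 reads in a class depend on the prior count and are not printed. Ratios to such a class use a floor of 3 reads over the class, which counts reads and not cells. The standard error was taken as the size of the log2 fold change divided by the root of the F statistic. Shares have exact Clopper-Pearson 95% intervals.

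The classes of a plate share animals, so the plate pairs their sums. As a check, deviations from the class means correlated over 3713 genes at r = 0.207 (cycling and other), 0.102 (cycling and promyelinating) and 0.151 (other and promyelinating). Alternatives were a block for the plate, DESeq2 1.42.0, limma 3.58.1 on log2(mean CPM + 1), no filter on low counts, cells of at least 1000 or 2500 genes, thinning to 50000 reads (5 cells were shallower), class limits of 10 and 100 CPM, other divisions by Atf3, other read minimums and each plate left out. The sums without the richest cell of a class were added after the data were seen.

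The members and the gene lists were chosen with earlier results of these data known. Cxcl1 between classes and Cxcl10 between plates were therefore described without a test. Named were all members, genes with r of at least 0.3 with a member on both plates, up to 4 called genes of each list per comparison by absolute log2 fold change, and the 4 receptors and 4 other ligands highest per length. The lists covered receptors, other ligands, NF-kB factors and targets, interferon response, immediate-early genes and markers of SCs, fibroblasts, immune, endothelial and mural cells. Analyses used R 4.3.3 and Python 3.11.15. Values of 1 receptor are not reported here.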

Additional observations from a re-analysis of the deposited data

Results flagged for a closer look

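Reads were also found in the 122 wells set aside for fewer than 1500 genes, which entered no comparison. Cxcl1 had 264 reads there, 226 of them in 1 well of plate 1 that held 1403 genes and 38 in 1 well of plate 2, above the 3 reads that a count of 0 allows. Cxcl12 had 64 reads in 1 well of plate 2, which held 118282 reads and 250 genes. As shares of wells, Cxcl1 was in 1.64% (exact 95% interval 0.199 to 5.80) and Cxcl12 in 0.820%, against 3.70% and 0.966% of the cells kept.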

How the results depend on the processing

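Of 36 counts of called members under an alternative, 32 equalled the edgeR count of 0. The others were 1: in promyelinating against cycling cells with the plate as a block (Cxcl10) and with DESeq2 (Csf1), and by Atf3 with DESeq2 and with no filter on low counts (Cxcl1). The replicate block changed no other call of a member. With 1 plate left no test was possible, and the values are ratios. The number of all genes called changed more: DESeq2 called 1026, 813, 2329 and 154 genes in the 4 comparisons where edgeR called 238, 134, 791 and 0, no filter gave 521, 317, 1290 and 9, limma 387, 214, 1362 and 1, and thinning 403, 267, 1144 and 1. Several uncalled log2 ratios changed sign. For other against cycling cells, Csf1 went from 0.16 to -1.17 without replicate 2 and 3.18 without replicate 1, and Il34 from 0.41 to -0.07 with the block, -0.18 thinned, -0.04 with limma, -1.17 without replicate 2 and 1.08 without replicate 1. By Atf3, Cxcl10 went from -0.16 to 0.33 with the block, 1.36 in cells of at least 2500 genes, 0.10 at 1 read of Atf3, 0.37 over all cells of the plate, 1.22 without replicate 1 and -0.57 without replicate 2, and Cxcl12 from 2.89 to -5.65 without replicate 1 and 8.09 without replicate 2. The causes were not tested. Without the richest cell of each plate and class, Il34 in cycling cells fell from 8.95 to 2.82 CPM, Cxcl1 in cycling cells from 9.66 to 4.17, Csf1 in other cells from 1.68 to 0.665 and Cxcl12 in other cells from 1.53 to 0.261 (means of the plates). Thinning moved the share of cells with Csf1 from 3.06% to 1.79%, and the 1 cell with Ccl2 was too shallow to be thinned.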

Other observations

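Cxcl11, another interferon-inducible ligand of Cxcr3 and chosen here after its values were seen, was higher in plate 1 as Cxcl10 was, with 10.2 CPM on plate 1 and 2.28 on plate 2 and 17 and 8 cells. Of the 25 cells with Cxcl11, 1 had Cxcl10, which is 2.44% of the 41 Cxcl10 cells, while 4.14% of the cells without Cxcl10 had Cxcl11. With 1 pool per plate, the difference between plates has no replicate check.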
